A study of Mus musculus with 8 samples.

Results

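The genes described here encode 10 cytokines that helper T cells are known to make, namely Il2, Il4, Il10, Il13, Il16, Il17a, Il21, Ifng, Csf2, and Ebi3. They were taken by the gene name printed on the array and are 10 of 29924 gene names measured. Each has 1 probe. Of the 10, 9 were bright enough to be tested, and the tenth is Il17a.

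The cells came from peripheral lymph nodes (pLN) of B6.Cg-Foxp3<tm1Mal> mice, in which green fluorescent protein (GFP) is expressed from the Foxp3 locus and marks regulatory T cells. Mice of both sexes, 8 to 14 weeks old, carried this allele in all groups and were immunized subcutaneously with the protein KLH in alum, and 8 to 15 mice were pooled for a sort. All cells were CD4+B220-. Naive CD4 T cells were sorted as GFP-PD1-GL7-, T follicular helper (TFH) cells as GFP-PD1hi GL7+, regulatory T (Treg) cells as GFP+PD1-GL7-, and T follicular regulatory (TFR) cells as GFP+PD1hi with or without GL7. Each of the 4 cell types has 1 array at d12 and 1 array at d25 after immunization, made from 25 ng of RNA. The 2 days therefore stand as the replicates of a cell type, and none of the arrays comes from unimmunized mice.

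Helper T cell cytokines act over short distances on receptors of neighboring cells. TFH cells enter the B cell follicle and give help to germinal center B cells, mainly through IL-4 and IL-21, while TFR cells carry Foxp3 and restrain this reaction. IL-2 is made by conventional T cells and consumed by Treg cells, which are known to transcribe little of it, and IL-10 and EBI3, a subunit shared by IL-27 and IL-35, are linked to suppression.

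Signals are in relative units (RU), scaled so that the 75th percentile of an array is 1500, with a floor of 20. The scanner software marks spots that are well above background, a probe takes this mark if over 50% of its remaining spots have it, and the dimmest such probe lay between 30.3 and 68.3 RU depending on the array. Levels of different genes are not set against each other, since probes differ in brightness. Defining genes of the cell types behaved as the labels state. Foxp3 was between 37266 and 49260 RU in Treg and TFR cells and at most 358 RU in naive and TFH cells, and Cxcr5 was between 35332 and 237475 RU in TFH and TFR cells and at most 4385 RU in the others. Bcl6 was between 23711 and 112808 RU in TFH and TFR cells and at most 6875 RU in the others. Ikzf2, another Treg cell gene, was as bright in TFH cells (10507 and 10816 RU) as in Treg cells (9918 and 11104 RU). In sorted bulk samples, fewer cells that make a transcript and less transcript per cell cannot be told apart. The d12 arrays shared a slide. At d25, naive and TFH cells were on another slide and Treg and TFR cells on a further one, so the day and the slide cannot be told apart.

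The values below rest on the following probes, shown for 5 cytokines that the main comparisons turn on as the first 30 of 60 bases in the orientation of the array file.
Il4: gtccaagtccacatcactgaaagacttcct
Il21: tgtttgtgttcatggcttcttatttaagac
Ifng: cttccctatacagctgaaaactgtgactac
Il10: ggaaaacctcgtttgtacctctctccgaaa
Ebi3: agcactggataattcacttgacttcttcag
In build NCBI37 these probes lie at chr11:53426076-53426135 for Il4, chr3:37121681-37121740 for Il21, chr10:117882841-117882900 for Ifng, chr1:132920943-132921002 for Il10, and chr17:56096309-56096368 for Ebi3. The exon or UTR that each covers was not analysed here. On chromosome 11, the probe of Il13 begins 18752 bases from that of Il4 and 615944 bases from that of Csf2. On chromosome 3, the probes of Il2 and Il21 begin 101669 bases apart.

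Promoters are shown for 4 of the cytokines that were higher in both follicular cell types, Il4, Il13, and Il21 with several motif matches and Ifng with 1, and for Il2, the neighbor of Il21 with another pattern. Each line is the stretch of 250 bases before the RefSeq transcription start, 5′ to 3′, in build GRCm38.p6. Capitals mark matches on either strand to 4 motifs of factors known to act on cytokine genes, namely GGAAA for NFAT, TGANTCA for AP-1, AGATAA for GATA factors, and TGCTGA for Maf.
Il4: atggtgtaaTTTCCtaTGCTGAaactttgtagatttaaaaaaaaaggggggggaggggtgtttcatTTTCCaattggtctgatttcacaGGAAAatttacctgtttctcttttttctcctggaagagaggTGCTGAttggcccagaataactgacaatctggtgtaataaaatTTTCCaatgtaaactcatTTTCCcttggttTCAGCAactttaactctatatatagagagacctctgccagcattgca
Il13: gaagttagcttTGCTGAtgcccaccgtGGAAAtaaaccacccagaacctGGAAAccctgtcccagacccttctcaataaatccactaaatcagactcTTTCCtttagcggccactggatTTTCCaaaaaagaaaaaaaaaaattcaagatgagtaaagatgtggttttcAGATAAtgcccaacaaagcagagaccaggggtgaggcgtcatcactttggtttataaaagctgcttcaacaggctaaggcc
Il21: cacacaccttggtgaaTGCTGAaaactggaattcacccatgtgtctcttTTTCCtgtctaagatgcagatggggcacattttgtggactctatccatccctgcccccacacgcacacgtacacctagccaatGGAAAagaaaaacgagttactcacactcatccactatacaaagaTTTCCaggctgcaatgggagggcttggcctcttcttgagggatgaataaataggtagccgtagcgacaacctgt
Il2: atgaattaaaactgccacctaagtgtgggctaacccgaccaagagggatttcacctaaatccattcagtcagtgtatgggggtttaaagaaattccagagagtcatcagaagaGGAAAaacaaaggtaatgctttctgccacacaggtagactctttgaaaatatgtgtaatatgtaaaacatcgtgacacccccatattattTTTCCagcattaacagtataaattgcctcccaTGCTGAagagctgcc
Ifng: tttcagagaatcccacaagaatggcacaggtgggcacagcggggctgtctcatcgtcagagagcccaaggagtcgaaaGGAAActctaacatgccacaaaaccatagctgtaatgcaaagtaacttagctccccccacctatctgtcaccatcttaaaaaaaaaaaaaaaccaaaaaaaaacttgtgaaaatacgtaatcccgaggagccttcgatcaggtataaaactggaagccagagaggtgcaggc
The windows are Il4 chr11:53618666-53618915, Il13 chr11:53634703-53634952, Il21 chr3:37232637-37232886, and Il2 chr3:37125955-37126204, all on the minus strand, and Ifng chr10:118440796-118441045 on the plus strand. The Il4 window holds 5 NFAT cores and 3 Maf motifs. Counts this high or higher occur in 0.39% and 0.146% of all 32851 promoter windows. Both are the highest counts in any window of the cytokines, so these shares describe a window picked for its counts. The second annotated start of Il4 has no match to any of the 4 motifs. Il13 holds 4 NFAT cores, 1 GATA motif, and 1 Maf motif, Il21 holds 3 NFAT cores and 1 Maf motif, and Il2 holds 2 NFAT cores and 1 Maf motif. Ifng and Ebi3 hold 1 NFAT core each and Csf2 holds 2 NFAT cores and 1 GATA motif, and none of these 3, which were also called higher in both follicular cell types, holds a Maf motif. Over all windows, 55.6% hold an NFAT core, 16.1% a Maf motif, 9.99% a GATA motif, and 6.75% an AP-1 motif. Among the 9 cytokines with a promoter entry, 8 have an NFAT core, 6 a Maf motif, 2 a GATA motif, and 2 an AP-1 motif in at least 1 entry. These genes have 12 entries in all, since Il4 and Il16 have several. The counts per gene are therefore not on the scale of the shares per window. No matches of different motifs overlap in these windows. A match is a description of the letters and not a binding site.

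**Figure D1:**
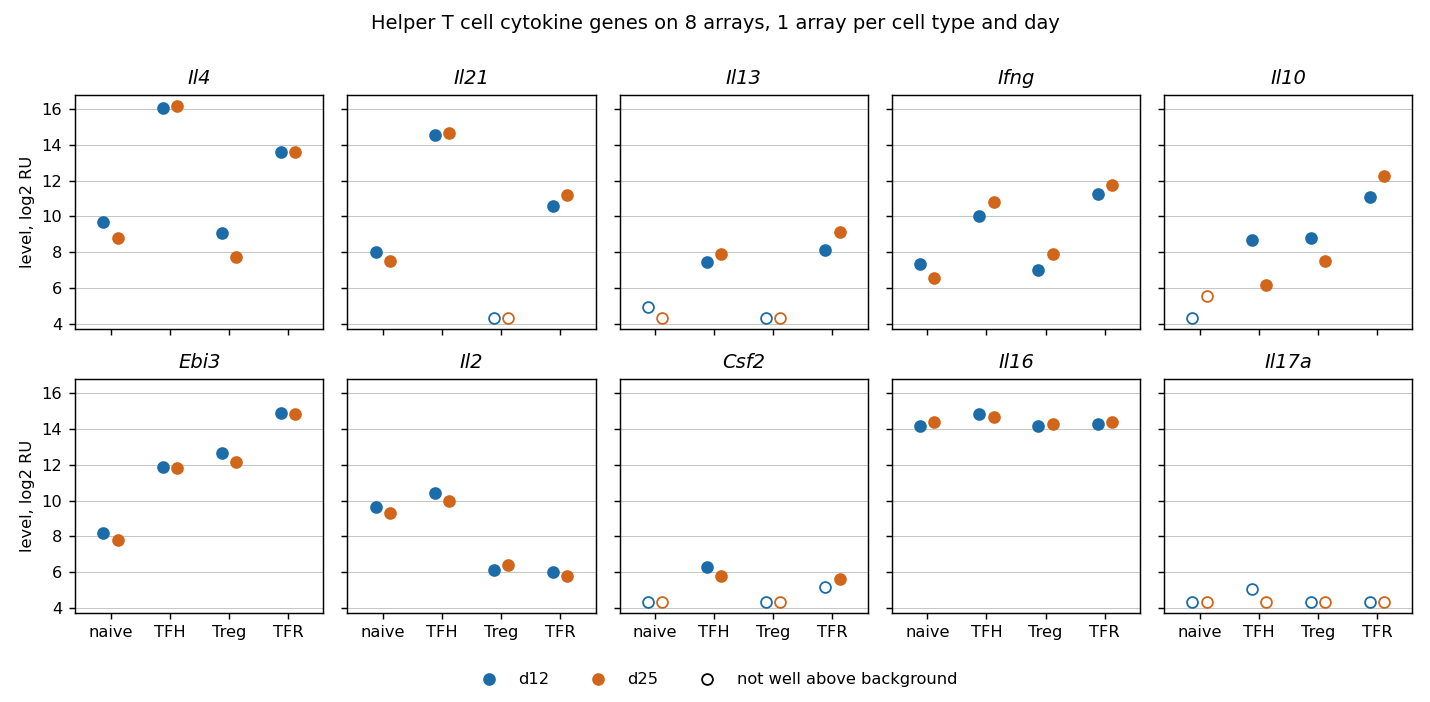
Level of each of the 10 cytokine genes in log2 RU (vertical axis) in naive, TFH, Treg, and TFR cells (horizontal axis), 1 point per array, with d12 and d25 in different colors and open points for arrays on which the probe was not well above background. Il4 and Il21 peak in TFH cells, Il10 and Ebi3 in TFR cells, and Il2 separates the Foxp3- from the Foxp3+ cells, while Il17a is open on all 8 arrays.

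Among the cytokines measured in all cell types, Il4, Ifng, and Ebi3 were higher in both follicular cell types than in the nonfollicular cells that share their Foxp3 status. Of the 5 cytokines well above background on all 8 arrays, which also include Il2 and Il16, 5 were higher in TFH than in naive cells, with a median difference of 3.47 on the log2 scale. Over all 13284 genes tested under that condition, 19.9% were higher and 29% lower, with a median of -0.10. In TFR over Treg cells 3 of the 5 were higher and none was lower, with a median of 2.49, against 17.3% of the genes higher and 24.7% lower and a median of -0.10. With all 9 tested cytokines, 8 were called higher in TFH than in naive cells and 7 in TFR than in Treg cells, beside 20.9% and 18.7% of all tested genes called higher and 25.7% and 21% called lower. Il13 and Csf2 were tested only because follicular arrays were well above background, so they could only come out higher in the follicular cells, and the counts over the 9 are a description. The cytokines were chosen with earlier results of these data known, so the counts and medians over the 5 are a description as well. The test throughout is limma with cell type and day as terms, and a difference was called at an adjusted p under 0.05.

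IL-4 drives class switching and survival of germinal center B cells. Il4 was at 68135 RU in TFH cells at d12 and 74917 RU at d25. It was at 12569 and 12557 RU in TFR cells. Naive cells gave 843 and 450 RU and Treg cells 548 and 210 RU. All 8 arrays were well above background, and the TFH and TFR arrays lay apart from each other and from the rest. The difference between TFH and naive cells was 6.86 ± 0.41 (log2, SE) or 116-fold (adjusted p = 0.000449, n = 2 arrays per cell type), with 6.34 at d12 and 7.38 at d25. TFR cells exceeded Treg cells by 5.21 ± 0.41 or 37.1-fold (adjusted p = 0.00172), with 4.52 and 5.91 within the days. TFR cells were below TFH cells, with a difference of -2.51 ± 0.41 (adjusted p = 0.0166) that was -2.44 at d12, when both were on the same slide. This call was lost under 5 of 20 alternatives. These were the slide as a fixed block (adjusted p = 0.091), no filter on dim probes (adjusted p = 0.0996), and 3 of the fits that left out an array. Treg and naive cells overlapped, with a difference of -0.86 and a 95% interval from -1.93 to 0.20.

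IL-21 acts on B cells to promote germinal center growth and plasma cell formation. Il21 was at 23726 and 26350 RU in TFH cells. TFR cells reached 1555 RU at d12 and 2386 RU at d25, and naive cells 259 and 182 RU. In Treg cells the probe was at the floor of 20 RU on both days and not well above background. The order was thus TFH, TFR, naive, and Treg cells, without overlap. TFH cells exceeded naive cells by 6.85 ± 0.27 or 115-fold (adjusted p = 0.000186). TFR cells were at least 36.3-fold higher than Treg cells (adjusted p = 0.000477), and naive cells at least 4.08-fold higher than Treg cells (adjusted p = 0.00352). Here and below, the adjusted p beside such a bound is that of the fitted difference, in which dim arrays kept their floored values. It does not test the bound. TFR cells were lower than TFH cells, at a log2 difference of -3.70 ± 0.27 (adjusted p = 0.0019) that was -3.93 at d12 on a shared slide. All 4 of these calls held under every alternative run for them, but the bounds hold only for the processing used here. After normexp background correction, which adds an offset of 50 to each spot and so compresses dim signals, the log2 difference was 3.71 in TFR over Treg, -1.25 in Treg over naive, and 6.08 in TFH over naive cells.

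IL-13 shares a receptor chain with IL-4 and is best known from allergic tissue responses. Il13 reached 173 and 238 RU in TFH cells. TFR cells had 278 and 570 RU. It was not well above background in naive cells (30.2 and 20 RU) or in Treg cells (20 RU on both days). Only the follicular cells thus gave a measured level. TFH cells were at least 3.48-fold higher than naive cells (adjusted p = 0.00379) and TFR cells at least 7.49-fold higher than Treg cells (adjusted p = 0.00234). After normexp correction these log2 differences were 1.04 and 1.83, each smaller than the log2 value of its bound. The arrays of TFR cells were above those of TFH cells, but the difference of 0.97 did not pass the test (adjusted p = 0.145, 95% interval from -0.04 to 1.98). So Il4 was lower in TFR than in TFH cells whereas its chromosomal neighbor Il13 was not called in that comparison. Whether the 2 genes differ in this was not tested.

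Mast cells and basophils also transcribe Il4 and Il13, so their defining genes are given here. Fcer1a, Mcpt8, and Ms4a2 were at the floor on all 8 arrays. Cpa3 was at 92.8 RU in Treg cells at d25 and at the floor on the 7 other arrays. The fifth gene of the list, Kit, was between 112 and 506 RU, and the sum of the list was 280 to 564 RU in TFH, 566 to 586 RU in TFR, 303 to 450 RU in Treg, and 192 to 197 RU in naive cells.

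IFN-γ is the defining cytokine of T helper 1 cells. Ifng reached 1049 and 1804 RU in TFH cells. TFR cells had 2451 and 3489 RU. Naive cells gave 163 and 94.6 RU and Treg cells 130 and 239 RU. The follicular arrays were all above the others, and those of TFR cells above those of TFH cells. The difference was 3.47 ± 0.43 or 11.1-fold between TFH and naive cells (adjusted p = 0.00348) and 4.05 ± 0.43 or 16.6-fold between TFR and Treg cells (adjusted p = 0.00341). These values were 2.41 and 3.21 after normexp correction, and the first was 4.22 without the naive array of d12 and 2.72 without that of d25. Between TFR and TFH cells it was 1.09 and not called (adjusted p = 0.141, 95% interval from -0.03 to 2.21), although 3 alternatives called it. Treg and naive cells overlapped. NK and CD8 T cells also transcribe Ifng. Of the NK cell list, Ncr1 was dim on all arrays and Klre1 was at most 96.8 RU. Klrb1c was at 1483 and 3077 RU in TFH and 820 and 752 RU in TFR cells against at most 162 RU elsewhere. Prf1 went the other way, with 1184 to 1440 RU in follicular and 4193 to 9780 RU in other cells. Gzma overlapped, with 1277 to 2416 RU in follicular and 757 to 3430 RU in other cells. The summed list, which adds probes of different brightness, was 3339 to 6142 RU in follicular and 5037 to 13509 RU in other cells. The summed CD8 list, Cd8a and Cd8b1, was 2110 to 3173 RU in follicular and 4208 to 5117 RU in other cells. The part of such cells in the Ifng result was not tested.

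IL-10 is the main inhibitory cytokine of the group. Il10 was at 2162 RU at d12 and 5004 RU at d25 in TFR cells. TFH cells gave 409 and 71.4 RU and Treg cells 443 and 182 RU. Naive cells were not well above background (20 and 46.5 RU). TFR cells were highest on both days, and TFH and Treg cells overlapped. The difference between TFR and Treg cells was 3.54 ± 1.04 or 11.6-fold (adjusted p = 0.0497) and that between TFR and TFH cells 4.27 ± 1.04 or 19.3-fold (adjusted p = 0.0457). At d12 these were 2.29 and 2.40, and at d25 4.78 and 6.13. Both calls lie close to the threshold and were lost under 9 and 10 of 19 alternatives, also in the authors' table (adjusted p = 0.0593 and 0.0552). Leaving out an array gave log2 differences of 2.50 to 4.57 and of 2.82 to 5.72, and normexp correction gave 2.95 and 3.28. TFH cells were at least 2.93-fold and Treg cells at least 4.86-fold above naive cells, without passing the test (adjusted p = 0.108 and 0.13).

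EBI3 pairs with IL-27p28 or, in IL-35, with IL-12p35. Ebi3 was at 30497 and 29808 RU in TFR cells. Treg cells had 6377 and 4523 RU, TFH cells 3805 and 3600 RU, and naive cells 287 and 221 RU. The cell types did not overlap in this order, and the neighboring Treg and TFH cells were not compared by a test. TFR cells exceeded Treg cells by 2.49 ± 0.15 or 5.61-fold (adjusted p = 0.000874) and TFH cells by 3.03 ± 0.15 or 8.15-fold (adjusted p = 0.000809). TFH cells exceeded naive cells by 3.88 ± 0.15 or 14.7-fold (adjusted p = 0.000178), and Treg cells exceeded naive cells by 4.41 ± 0.15 or 21.3-fold (adjusted p = 0.000781). These 4 calls held under all 20 alternatives, with the differences from naive cells at 3.23 in TFH and 3.74 in Treg cells after normexp correction. Of the partner subunits, Il12a was dim and at 20 RU on all 8 arrays. Il27, which encodes p28, was between 453 and 624 RU and was lower in TFH than in naive cells, at a log2 difference of -0.38 ± 0.08 (adjusted p = 0.0194). Il27 was not called in TFR against Treg cells (-0.28, adjusted p = 0.0533) or against TFH cells.

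IL-2 is the growth factor that Foxp3+ cells depend on. Il2 reached 805 and 632 RU in naive cells. TFH cells had 1375 and 987 RU. Treg cells gave 68.8 and 82.9 RU and TFR cells 63.5 and 54.1 RU, all well above background. The Foxp3+ arrays were thus all below the Foxp3- arrays. The log2 difference was -4.31 ± 0.20 between TFR and TFH cells (adjusted p = 0.000718) and -3.24 ± 0.20 between Treg and naive cells (adjusted p = 0.00205). At d12, on a shared slide, the values were -4.44 and -3.55. Both calls held under all 20 alternatives, with smaller values of -2.66 and -1.92 after normexp correction. TFH cells were 1.63-fold higher than naive cells (0.71 ± 0.20, adjusted p = 0.0376), a call lost under 9 of 20 alternatives. TFR and Treg cells differed by -0.37 (adjusted p = 0.196, 95% interval from -0.87 to 0.14). Il21, on the same chromosome, was called higher in TFR than in Treg cells. Whether the 2 genes differ in this comparison was not tested.

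GM-CSF, encoded by Csf2, activates myeloid cells. Csf2 reached 78.0 and 54.3 RU in TFH cells. TFR cells had 36.0 and 49.3 RU, and only their d25 array was well above background. Naive and Treg cells were at 20 RU and not well above background. TFH cells were at least 1.11-fold higher than naive cells. The fitted difference, with naive cells at the floor, was 1.70 ± 0.23 (adjusted p = 0.00472). The difference between TFR and Treg cells was called (adjusted p = 0.0227), but no fold can be given, and 5 of 19 alternatives lost the call. After normexp correction both differences were small, at 0.38 (adjusted p = 0.0199) and 0.21 (adjusted p = 0.13). IL-16, a ligand of CD4 that is cut from a larger protein, showed the smallest range. Il16 was at 28693 and 25827 RU in TFH cells and between 18404 and 21328 RU on the other 6 arrays. TFH cells were 1.37-fold above naive cells (adjusted p = 0.0286), and 10 of 20 alternatives lost the call. Between TFR and Treg cells the difference was 0.10, with an interval from -0.20 to 0.40. Il17a, the cytokine of T helper 17 cells, was at 20 RU on 7 arrays and at 32.6 RU in TFH cells at d12. It thus had no array well above background and was not tested.

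**Figure D2:**
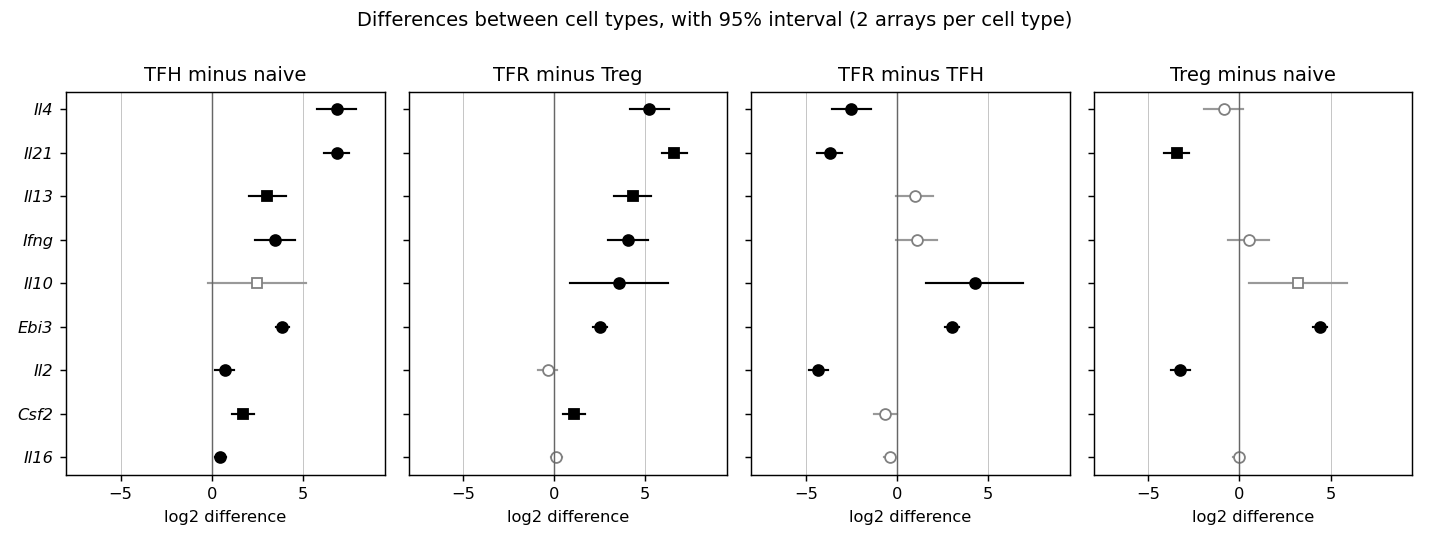
Log2 difference with its 95% interval (horizontal axis) for the 9 tested cytokines (vertical axis) in 4 comparisons of cell types, each with 2 arrays per cell type. Filled symbols passed the test, squares mark a comparison in which a cell type had no array well above background so that the plotted difference depends on the floor, and pairs that were both dim are left out. Differences lie mostly to the right for TFH over naive and TFR over Treg cells and on both sides for TFR over TFH cells.

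The follicular cell types differed from each other in their cytokines. Of the 9 genes, Il10 and Ebi3 were higher in TFR than in TFH cells and Il2, Il4, and Il21 were lower. The calls for Il10 and Il4 were lost under some alternatives, as given above. TFH cells were sorted as GL7+ and TFR cells with or without GL7, so the cell type and this gate cannot be told apart. Over all tested genes, 11.7% were higher and 10.5% lower. Between the nonfollicular cell types, Ebi3 alone of the 9 was called higher in Treg than in naive cells, and Il2 and Il21 were called lower. Here 5.89% of the tested genes were higher and 3.98% lower. These comparisons share arrays with the first pair, so their values are not independent of each other. At d25, Foxp3+ and Foxp3- cells were on different slides, and the slide cannot be told apart from the Foxp3 status on that day.

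The fit also compared the change from Treg to TFR cells with the change from naive to TFH cells. Ebi3 alone of the 9 was called, with a change that was smaller in Foxp3+ cells (difference -1.39 ± 0.21, adjusted p = 0.025). In this comparison 4.03% of the tested genes were called with a positive and 4.46% with a negative value. For the other cytokines well above background in all cell types, the values were -1.64 ± 0.58 for Il4 (adjusted p = 0.169), -1.07 ± 0.28 for Il2 (adjusted p = 0.0898), 0.58 ± 0.61 for Ifng (adjusted p = 0.613), and -0.36 ± 0.16 for Il16 (adjusted p = 0.255). The call for Ebi3 was lost under 11 of 20 alternatives, 8 of which left out an array, and its value was -0.77 after normexp correction (adjusted p = 0.0495). That correction also called Il21 (-2.37, adjusted p = 0.00445) and Il4 (-1.88, adjusted p = 0.0334), whereas the value for Il21 in the fit reported was -0.26 (adjusted p = 0.728) and depended on the floor. In the lists described below, 1 receptor chain, 1 further cytokine, and 4 regulators were called with a positive and 3, 3, and 6 with a negative value. The 3 largest called values among the receptor chains were those of Il2rb (-2.60), Il4ra (2.15), and Il12rb1 (-1.49). Among the further cytokines they were those of Tnfsf8 (-3.43), Tnfsf11 (-2.74), and Tnf (-2.04). Among the regulators they were those of Runx3 (3.35), Maf (-3.06), and Ikzf3 (-2.81). Prdm1 (2.08), Fosl2 (1.80), Bach2 (1.59), and Bcl6 (-1.55) followed among the called regulators. Uncalled values reached -3.82 for Cebpa (adjusted p = 0.054), 3.03 for Xcl1 (adjusted p = 0.0808), and 2.44 for Ccl5 (adjusted p = 0.163).

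No cytokine was called between d25 and d12 across the cell types, and none had an unadjusted p under 0.05. Of all tested genes, 0.019% were higher and 0.0508% lower at d25, 11 in all, and 4549 had an unadjusted p under 0.05. Within cell types, with 1 array on each day and so no test, Il10 differed most. It was 5.72-fold lower at d25 in TFH cells, a log2 difference of -2.52. The difference was -1.28 in Treg cells and 1.21 in TFR cells. For Il4 it was -1.39 in Treg and -0.90 in naive cells and at most 0.14 in follicular cells. Ifng was higher at d25 in TFH (0.78), Treg (0.88), and TFR cells (0.51) and lower in naive cells (-0.78). Il13 was higher by 1.04 and Il21 by 0.62 in TFR cells. B cell genes also differed between the TFH arrays. Of 10 listed genes, 9 have a probe, and their sum was 2292 RU at d12 and 14623 RU at d25 in TFH cells, against 4796 to 9058 RU in the other cell types, with Ms4a1 at 246 RU at d12 and at 2736 RU at d25 in TFH cells and Pax5 dim on all arrays. Without the TFH array of d25, the numbers of called cytokines were 8 for TFH over naive, 7 for TFR over Treg, and 3 for TFR over TFH cells.

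**Figure D3:**
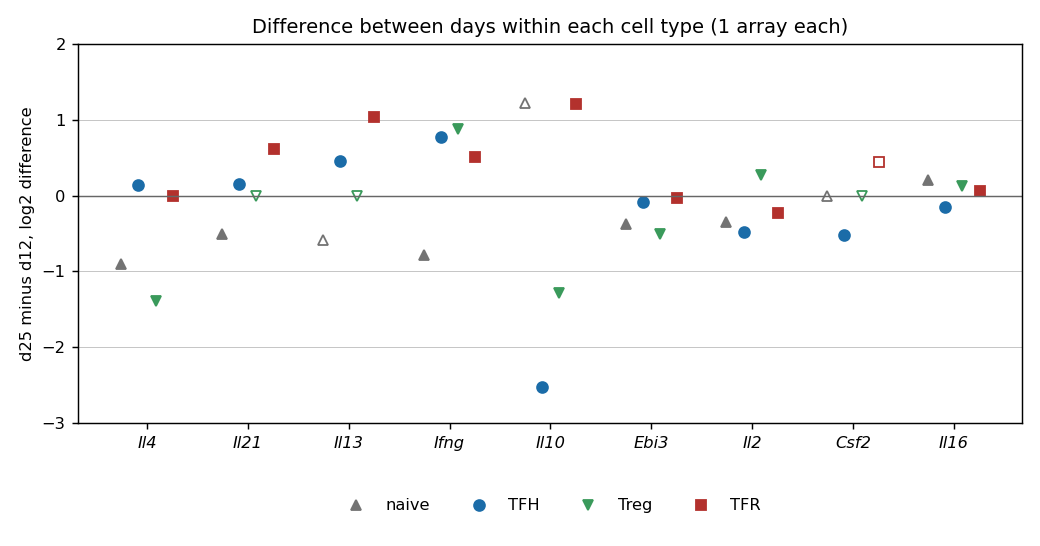
Difference between d25 and d12 on the log2 scale (vertical axis) for the 9 tested cytokines (horizontal axis) in naive, TFH, Treg, and TFR cells, 1 symbol per cell type, open where at least 1 of the arrays was not well above background. Il10 spans from -2.52 in TFH to 1.21 in TFR cells, while Il16 and Ebi3 stay within 0.5 of 0 in either direction.

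The receptors of these cytokines were compared as a list of 21 chains, 16 of them tested. The list also holds Il12rb1, which is not a chain for the cytokines described here and was called higher in all 4 comparisons. In TFH over naive cells 4 were higher and 8 lower (median -0.27), in TFR over Treg cells 3 were higher and 10 lower (median -0.58), in TFR over TFH cells 7 were higher and 2 lower (median 0.48), and in Treg over naive cells 6 were higher and 1 lower (median 0.04). Over all tested genes, the shares called higher and lower were 20.9% and 25.7%, 18.7% and 21%, 11.7% and 10.5%, and 5.89% and 3.98% in these 4 comparisons, and the medians lay between -0.08 and -0.01. Il4ra, the shared chain for IL-4 and IL-13, was at 174 and 328 RU in TFH cells, where Il4 was highest, and at 1098 and 901 RU in TFR cells. Naive cells gave 4844 and 5603 RU and Treg cells 4887 and 4917 RU. The log2 difference of Il4ra was -4.45 ± 0.29 between TFH and naive cells (adjusted p = 0.000575), -2.30 ± 0.29 between TFR and Treg cells (adjusted p = 0.00525), and 2.06 ± 0.29 between TFR and TFH cells (adjusted p = 0.0113). Ifngr1, the ligand-binding chain for IFN-γ, was lower in both follicular types, at -1.08 ± 0.15 in TFH over naive (adjusted p = 0.00466) and -1.33 ± 0.15 in TFR over Treg cells (adjusted p = 0.00383). Its partner Ifngr2 was at -2.35 and -1.85 in these comparisons. Il17ra was at -1.63 and -1.58, Csf2rb, the shared signaling chain for GM-CSF, at -0.80 and -0.74, and Il21r at -0.66 and -0.48, all called. The receptor chains did not all go this way. Csf2ra, the chain specific for GM-CSF, was higher in both follicular types, by 0.94 ± 0.18 in TFH than in naive cells (adjusted p = 0.0133) and by 1.38 ± 0.18 in TFR than in Treg cells (adjusted p = 0.00581).

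The chains for IL-2 and IL-10 showed other patterns. Il2ra, the high-affinity chain CD25, was at 25916 and 28684 RU in Treg and 14491 and 20082 RU in TFR cells, against 207 to 249 RU in naive and TFH cells. It was higher by 6.92 ± 0.12 in Treg than in naive cells (adjusted p = 0.000303) and by 6.17 ± 0.12 in TFR than in TFH cells (adjusted p = 0.000439), and its difference between TFR and Treg cells was -0.68 ± 0.12 (adjusted p = 0.0113). Il2rb, the signaling chain, was higher by 2.82 ± 0.13 in TFH than in naive cells, by 3.55 ± 0.13 in Treg than in naive cells, and by 0.96 ± 0.13 in TFR than in TFH cells. Il12rb1, on the list but not a chain for IL-2 or IL-10, was higher by 2.27 in TFH and 2.16 in Treg cells than in naive cells. Il10ra was between 5289 and 5817 RU in TFR, 3501 and 3780 RU in Treg, and 1652 and 2032 RU in TFH and naive cells, higher by 1.60 ± 0.14 in TFR than in TFH cells (adjusted p = 0.00333) and by 0.61 ± 0.14 than in Treg cells (adjusted p = 0.0281). Cd4, the receptor of IL-16, was lower in TFR than in TFH cells at -0.66 ± 0.12 (adjusted p = 0.0234).

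Among 41 regulators of cytokine genes, 40 were tested. In TFH over naive cells 15 were higher and 6 lower (median 0.30), in TFR over Treg cells 13 were higher and 7 lower (median 0.25), in TFR over TFH cells 10 were higher and 6 lower (median -0.05), and in Treg over naive cells 8 were higher and 1 lower (median 0.31). The shares over all tested genes in the same comparisons were 20.9% higher and 25.7% lower, 18.7% and 21%, 11.7% and 10.5%, and 5.89% and 3.98%. Maf, which is known to drive Il4, Il10, and Il21, was at 37438 and 61046 RU in TFH and 18286 and 30114 RU in TFR cells, against 1329 to 5566 RU in the others, a difference of 5.14 ± 0.25 from naive to TFH cells (adjusted p = 0.000274) and of 2.08 ± 0.25 from Treg to TFR cells (adjusted p = 0.00455). Maf was also higher by 2.04 in Treg than in naive cells. Batf, an AP-1 family factor, was higher by 2.12 ± 0.11 and 2.11 ± 0.11 (adjusted p = 0.000302 and 0.000672). Cebpa, a leucine zipper factor best known from myeloid cells, reached 21150 and 20921 RU in TFH, 6015 and 6244 RU in TFR, and 266 and 87.9 RU in Treg cells and not well above background in naive cells. It was at least 357-fold higher in TFH than in naive cells (adjusted p = 0.000464) and higher by 5.32 ± 0.56 in TFR than in Treg cells (adjusted p = 0.00323). Bcl6, the master regulator of follicular T cells, was higher by 3.94 in TFH than in naive and 2.40 in TFR than in Treg cells, and Ikzf3 by 4.26 in TFH than in naive cells. Bach2, a repressor of effector genes, was lower at -3.53 ± 0.15 in TFH over naive and -1.93 ± 0.15 in TFR over Treg cells (adjusted p = 0.00022 and 0.00173). Jun, an AP-1 subunit, was at -2.22 in TFR over Treg cells.

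Tbx21, which encodes the T helper 1 factor T-bet, was at 2042 and 1746 RU in TFR cells and between 440 and 735 RU on the other arrays. It was higher by 1.84 ± 0.21 in TFR than in Treg cells (adjusted p = 0.00418) and by 1.54 ± 0.21 than in TFH cells (adjusted p = 0.0105), while TFH and naive cells differed by 0.34 (adjusted p = 0.246), although Ifng was higher in both follicular types. Gata3, the T helper 2 factor, was highest in TFR cells with 13499 and 11295 RU and was called in all 4 comparisons, by 0.90 in TFH over naive, 0.92 in TFR over Treg, 0.92 in TFR over TFH, and 0.90 in Treg over naive cells. Prdm1, known to promote Il10, was at 2766 and 4358 RU in TFR cells, higher by 2.66 ± 0.22 than in TFH cells (adjusted p = 0.00262) and by 1.38 ± 0.22 than in Treg cells (adjusted p = 0.00934). Ahr was higher by 3.30 in TFR than in TFH cells and by 3.20 in Treg than in naive cells, Runx3 by 2.89 in TFR than in TFH cells, and Rora by 2.01 in Treg than in naive cells. Irf4 was higher by 1.56 ± 0.18 in TFH and 1.62 ± 0.18 in Treg than in naive cells.

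**Figure D4:**
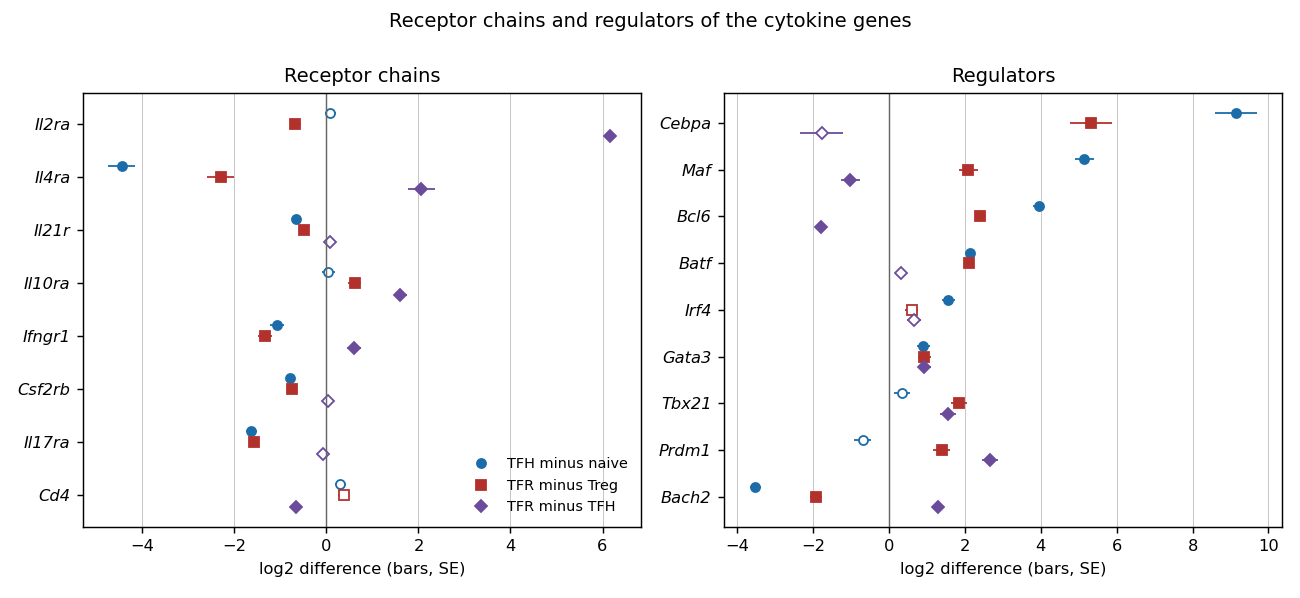
Log2 difference with its SE (horizontal axis) for 8 receptor chains and 9 regulators (vertical axes) in TFH over naive, TFR over Treg, and TFR over TFH cells, with filled symbols for differences that passed the test. Il4ra lies at -4.45 and -2.30 and Cebpa at 9.14 and 5.32 in the first and second comparison, and Il2ra at 6.17 in the third.

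Of 29 genes listed as further helper cytokines, 21 were tested. The list also holds Penk, which is not a cytokine gene. Penk was called higher in all 4 comparisons and so is part of each count of higher genes. In TFH over naive cells 9 were higher and 3 lower (median 0.49), in TFR over Treg cells 8 were higher and 3 lower (median 0.10), in TFR over TFH cells 6 were higher and 4 lower (median 0.04), and in Treg over naive cells 6 were higher and 1 lower (median 0.00). All tested genes were called higher in 20.9%, 18.7%, 11.7%, and 5.89% of cases and lower in 25.7%, 21%, 10.5%, and 3.98%, respectively. Il6, Areg, Ccl3, and Lif were tested only because follicular arrays were well above background. Their direction against naive and Treg cells was set by this filter, so the counts that hold them are a description. Penk, which encodes the opioid precursor proenkephalin, was at 103386 and 144581 RU in TFR, 6176 and 16578 RU in TFH, 4974 and 5228 RU in Treg, and 111 and 187 RU in naive cells. Penk was higher by 6.13 ± 0.32 in TFH than in naive cells (adjusted p = 0.000321), by 5.14 ± 0.32 in Treg than in naive cells (adjusted p = 0.00221), by 4.58 ± 0.32 in TFR than in Treg cells (adjusted p = 0.00131), and by 3.59 ± 0.32 in TFR than in TFH cells (adjusted p = 0.00333). Tnfsf11, the gene of RANKL, was higher by 4.49 ± 0.13 in TFH than in naive cells (adjusted p = 0.000115) and by 2.03 in Treg than in naive cells. Xcl1, a chemokine for XCR1+ dendritic cells, was at 7700 and 7322 RU in TFR cells and 4.47 ± 0.53 higher than in Treg cells (adjusted p = 0.00438). Il6 was well above background in the follicular cells, with 63.0 and 83.6 RU in TFH and 71.1 and 194 RU in TFR cells. The other arrays were at the floor, and Il6 was at least 2.21-fold higher in TFR than in Treg cells (adjusted p = 0.00832). Ccl3 was at least 2.44-fold higher in TFH than in naive cells (adjusted p = 0.0279). Tnfsf8, the ligand of CD30, was lower in TFR than in TFH cells at -3.48 ± 0.24 (adjusted p = 0.00174). Cd40lg, which was well above background on 3 of the 8 arrays (20 to 149 RU), was at least 2.74-fold lower in TFR than in TFH cells (adjusted p = 0.00339) and at least 1.94-fold lower in Treg than in naive cells (adjusted p = 0.0118). It was tested only because Foxp3- arrays were well above background, so it could only come out lower in Foxp3+ cells. Il5, Il9, Il17f, and Il31, cytokines of T helper 2 and 17 cells, were dim on all arrays. Il22, a T helper 17 cytokine named here after its values were seen, was well above background on all 8 arrays, at 498 RU in TFH cells at d12 and between 43.5 and 117 RU on the others, and was called in none of the 4 comparisons.

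For each tested cytokine, the genes with the most similar profile over the 8 arrays were found by the root mean square difference of log2 values after centering each gene. For Il4 these included Tubb6 (0.57) and Stc2 (0.58), and for Il21 Sostdc1 (0.92) and Mei1 (1.11). Sostdc1 was at 86725 and 81036 RU in TFH, 2133 and 1897 RU in TFR, 220 and 91.7 RU in naive cells, and at 20 RU in Treg cells. For Il10 they were Ccr6 (0.73), Serpinc1 (0.85), and Arhgef5 (0.89), for Ebi3 Lamc1 (0.40), Hspb1 (0.51), and Matn2 (0.60), and for Il2 Pde3b (0.59), Cnga1 (0.60), and Abhd15 (0.64). Il13 was most like Plxnb2 (0.34), Ecel1 (0.34), and Xkr6 (0.37), and Ifng most like 1700019D03Rik (0.29), Cacna1s (0.35), and Morn4 (0.35). Csf2 and Il16, which vary little, were matched more closely, by Lax1, Nod2, and Kank2 (0.13 to 0.16) and by Tle3, Zfp513, and Golga2 (0.06 to 0.07). No cytokine described here was among the 3 nearest genes of another.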

How the data were processed

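RNA of sorted CD4 T cell types from pLN was hybridized by the authors to one-color Agilent arrays. The authors deposited scanner files from Agilent Feature Extraction 10.7.3.1, with background-corrected intensities of the spots, together with their normalized intensities in a table. Here, spots marked by the software, outside 1.42 times the interquartile range of the 4 spots of a probe, or with a pixel coefficient of variation above 0.5 were excluded, which kept 86.45 to 89.18% of 157716 spots. The geometric mean per probe was quantile normalized, scaled to a 75th percentile of 1500, floored at 20, and put on the log2 scale. Values correlated with the authors' table at r = 0.9994 on each array.

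The brightest probe stood for a gene, and no cytokine had a further probe. Of 29924 gene names, 15763 were tested, those with a probe well above background at d12 and d25 in 1 or more cell types. limma 3.58.1 (R 4.3.3, lmFit and eBayes) was fitted with cell type and day, leaving 3 residual degrees of freedom plus a prior of 1.9, and p-values were adjusted over all genes by Benjamini-Hochberg. The methods' ANOVA could not be fitted with 1 array per cell type and day. The p-values rest on how far differences between cell types varied from d12 to d25, after the shared difference between the days was removed. Where a cell type had no array well above background, its arrays were set to the higher of their own value and the lowest signal well above background, giving an "at least" fold. The adjusted p beside such a fold is that of the fitted difference and does not test the bound. All 10 cytokines are named. From the lists, preset partners of the cytokines and the 3 largest called differences per comparison are named. A few genes that these rules name are not reported here. The cytokines and lists were chosen with earlier results of these data known. The number of arrays limits the precision. All accessions of the cytokine probes were found in RefSeq (GRCm38.p6), from which promoters of 9 of the 10 were taken. Fits were tested on simulated data.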

Additional observations from a re-analysis of the deposited data

Results flagged for a closer look

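The change of Ebi3 from Treg to TFR cells differed from its change from naive to TFH cells by -1.39 ± 0.21 on the log2 scale (adjusted p = 0.025), the smaller change being that of Foxp3+ cells. All arrays of Foxp3+ cells showed the higher Ebi3 level of their day, Treg against naive and TFR against TFH cells, and 11 of 20 alternatives lost the call.

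Il10 differed between days in opposite directions in different cell types, and this difference was not tested, since each cell type had 1 array per day. From d12 to d25 the log2 difference was -2.52 in TFH and -1.28 in Treg cells and 1.21 in TFR cells. Only genes that moved by at least 1 on the log2 scale in each direction, on arrays well above background, were taken up here. No group held the 4 arrays needed to look for a single array apart from its group.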

How the results depend on the processing

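Of 470 values of called differences recomputed under the alternatives, 411 stayed called with the same sign, 59 were no longer called, and none turned. Of 530 values of differences that were not called, 505 stayed so with the same sign, 8 were called, and 17 turned. With probes required to be well above background on all arrays, 5, 3, and 3 cytokines were called for TFH over naive, TFR over Treg, and TFR over TFH cells, since fewer cytokines were tested. For TFR over TFH cells, 3 were called without a filter and with the slide as a fixed block. For the difference between the changes in Foxp3+ and Foxp3- cells, 3 were called after normexp correction, among them Il21 (-2.37) and Il4 (-1.88), and 0 without a filter, without the replicate block (no day term), and with the slide as a fixed block. The cause was not tested. Leaving out each array in turn gave 6 to 8, 5 to 7, and 3 to 5 called cytokines in these comparisons and 0 in every case for the difference between the changes. Left-out arrays turned uncalled values, which ranged from -0.25 to 1.26 for Ifng and -0.14 to 0.06 for Il16 in Treg over naive cells. For the difference between the changes they ranged from -0.17 to 1.33 for Ifng, -0.40 to 2.50 for Il10, and -0.64 to 0.12 for Il21, and for d25 over d12 from -0.86 to 0.38 for Il10, -0.04 to 0.50 for Il13, -0.17 to 0.15 for Csf2, and -0.12 to 0.26 for Il21. In the authors' table the difference of changes for Il21 was 0.10, and without quantile normalization Il16 differed by -0.04 between the days. The day was set as the replicate block in the fit reported, and the fit without it changed 1 further call, that of Il2 in TFH over naive cells (adjusted p = 0.0525). Over all genes, called counts moved by over 1.5 times for TFR over TFH cells (3488, against 1369 with the slide block, 1645 without a filter, and 2211 without the replicate block) and for Treg over naive cells (1556, against 530, 687, and 1004), where the slide block raised the share of higher calls (375 of 530). The difference between the changes had 1338 calls, against 701, 421, and 816, and TFR over Treg cells had 6256, against 3854 without a filter. Leaving out an array gave 4335 to 6563 calls for TFH over naive (7344), 2504 to 6681 for TFR over Treg, 981 to 2899 for TFR over TFH, 424 to 1748 for Treg over naive cells, and 297 to 1072 for the difference between the changes. For d25 over d12 the count over all genes was 11 and ranged from 0 to 1121 over the settings, and 0 cytokines were called in each of them. The dimmest probes well above background lay between 30.3 and 68.3 RU, and levels under these were not measured.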
